A study of Mus musculus with 50 samples.

Results

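Liver tumours of C3H/He mice that had been fed the control diet and given DEN were compared with the non-tumour livers of mice on the same diet. The tumours were taken by their labels, tissue type tumour, control diet and treatment DEN, and were 5 of the 50 libraries of the series, numbered T17 to T21. The comparator was the 12 livers labelled non-tumour and control diet, N1 to N12, so that 17 libraries entered the comparison. Both groups were C3H/He mice harvested at 48 weeks, and both ate the control diet, a low-fat diet that served as the reference for the high-fat, high-fructose ALIOS diet of the rest of the series. DEN was given to the tumour group only. The dose and the age at injection were not given in the sources used here. No non-tumour liver from a DEN-treated mouse was analysed here, so exposure to DEN and being a tumour cannot be told apart in any difference below. The labels do not say whether the 5 tumours came from 5 mice, nor whether the livers and tumours were processed together. P-values therefore measure the spread between these samples, which may be partly technical.

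DEN (diethylnitrosamine) is a hepatocarcinogen that pericentral hepatocytes convert, mainly through the cytochrome P450 enzyme Cyp2e1, into an alkylating agent that damages DNA. Tumours that follow in C3H mice often carry activating Hras or Braf mutations, which drive the RAS to MAPK kinase cascade, whereas tumours with activated beta-catenin form another class that keeps or exaggerates the pericentral programme headed by glutamine synthetase. Adult hepatocytes divide rarely, are zoned along the lobule and, in the mouse, differ between the sexes through the pattern of growth hormone release. Each of these programmes was read from the counts below.

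Counts were raw reads per gene, and levels are given as counts scaled to a common library size by TMM (CPM). Total counts were 29683887 to 36606868 in the tumours and 23968280 to 35091968 in the livers, a difference that did not pass the test (exact permutation test, 2-sided, p = 0.124, smallest possible p = 0.000323). The 10 most counted genes held 26.6% to 31.9% of the counts in the tumours and 16.7% to 31.8% in the livers (exact permutation test, p = 0.00582). Alb alone held 12.5% to 16.6% of tumour counts and 5.54% to 9.53% of liver counts. Distances between libraries were Euclidean distances of variance-stabilized counts (DESeq2) over the genes tested. The distance between any tumour and any liver was 104 to 139, against 42.1 to 74.8 between tumours and 26.7 to 73.8 between livers.

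Of the 12 livers, 5 stood apart from the others in single gene groups, and those groups are given with and without them. The acute phase gene Saa1, an apolipoprotein that the liver secretes in inflammation, was at 19544, 9684 and 6611 CPM in N5, N6 and N7 and at 49.6 to 496 CPM in the other 9 livers. Isg15, a ubiquitin-like protein that interferon induces, was at 217 CPM in N6 and at 6.4 to 19.9 CPM in the other 11. Arntl, the core clock activator, was at 21.2 and 23.5 CPM in N11 and N12 and at 0.784 to 2.07 CPM in the other 10 livers. In Saa1 no tumour (35.1 to 142 CPM) reached the levels of N5, N6 and N7, and T20 and T21 (35.1 and 44 CPM) lay below every liver. In Arntl no tumour (0.587 to 2.51 CPM) reached the levels of N11 and N12, and T19 and T20 (0.587 and 0.643 CPM) lay below every liver. In Isg15 (18.4 to 25 CPM) 4 of the 5 tumours lay above every liver but N6.

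**Figure D1:**
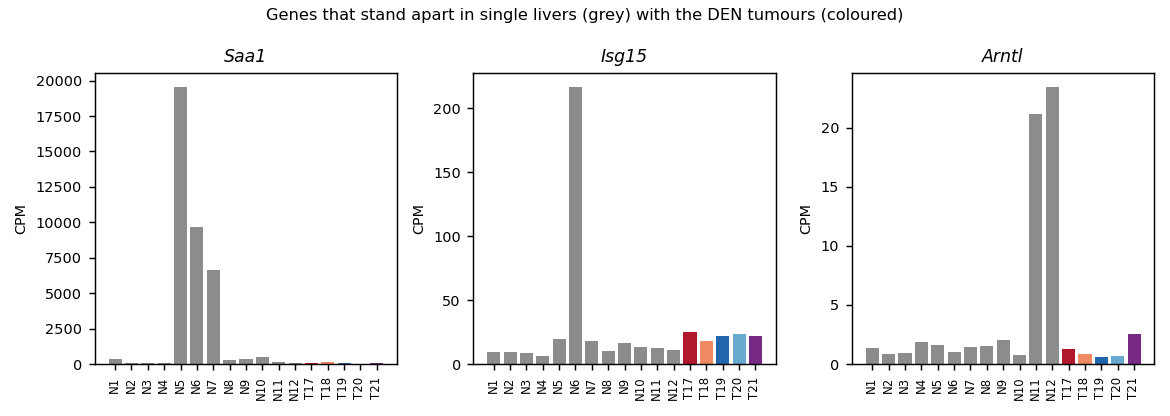
Levels (CPM, linear axis from 0) of Saa1, Isg15 and Arntl in each of the 12 control-diet livers (grey bars) and 5 DEN tumours (coloured bars). Saa1 was high in livers N5, N6 and N7, Isg15 in N6 and Arntl in N11 and N12, whereas no tumour reached these levels.

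Of 14731 genes tested with the edgeR quasi-likelihood test, 4017 were higher in the tumours (27.3%) and 3601 lower (24.4%) at a Benjamini-Hochberg adjusted p under 0.05. With at least a 2-fold change in addition, 1979 were higher and 1198 lower, and with at least an 8-fold change 476 were higher and 204 lower. All 5 tumours lay above all 12 livers for 1659 genes (11.3%) and below them for 1620 genes (11%). The median log2 fold change over all genes was 0.03. As 7618 of the 14731 genes were called, the counts of gene lists below are read against 27.3% and 24.4%. Log2 fold changes are given tumour minus liver with their standard error, and tumour values are listed in the order T17, T18, T19, T20 and T21.

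**Figure D2:**
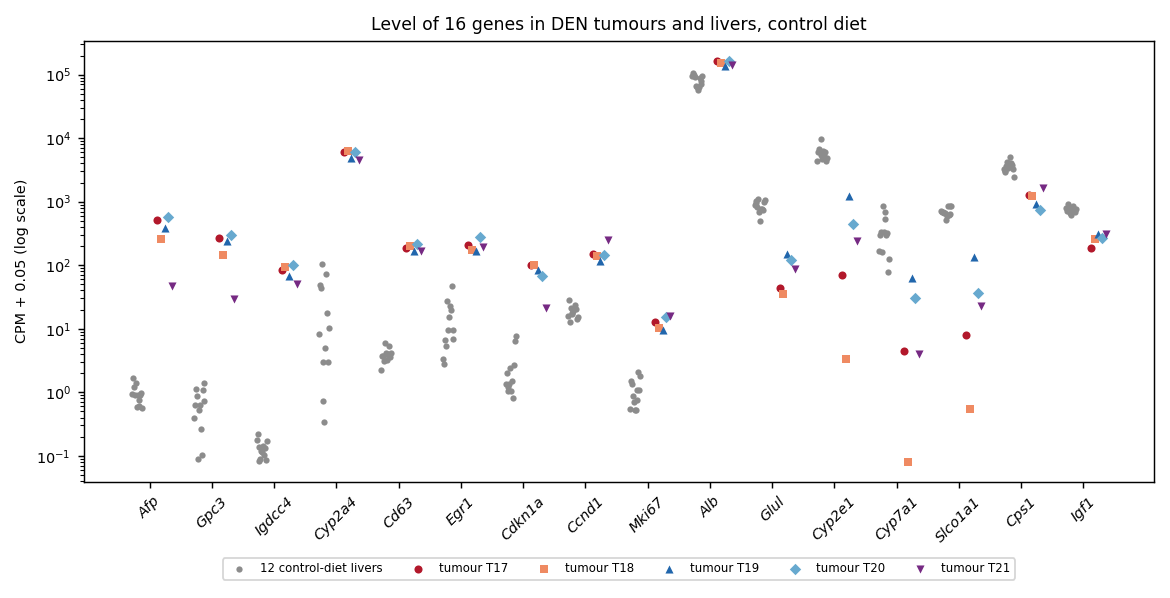
Level of 16 genes, as CPM plus 0.05 on a log axis, in each of the 12 control-diet livers (grey points) and the 5 DEN tumours (one colour and symbol each). The groups did not overlap for any of the 16 genes, and tumour T21 was the lowest tumour for Afp, Gpc3 and Cdkn1a whereas T18 was the lowest for Cyp2e1, Cyp7a1 and Slco1a1.

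Among genes that were higher without overlap, the largest changes were in genes nearly silent in the livers. Prom2, a membrane glycoprotein of epithelial protrusions, was at 68.4, 41.7, 53.2, 71.2 and 74.3 CPM in the tumours, and the 12 livers together held 15 reads. Akr1c18, an aldo-keto reductase that inactivates progesterone, reached 346, 287, 252, 309 and 199.8 CPM against 0 to 0.602 CPM (median 0.274) in the livers, with log2 fold change 10.10 ± 0.34, adjusted p = 1.92e-14. Alox5, the enzyme that starts leukotriene synthesis, was at 99.4, 61.5, 66.3, 45.3 and 88.2 CPM against 0 to 0.223 CPM (median 0.0938) in the livers (log2 fold change 9.65 ± 0.29, adjusted p = 5.24e-15). Miox, which opens the inositol ring and is normally a kidney enzyme, was at 19.4, 19.6, 28.6, 38.4 and 23.5 CPM, with 7 reads in all 12 livers. These 4 genes were high in all 5 tumours, with no tumour close to the livers. Cdh17, an intestinal cadherin, was at 20.3, 19.3, 14.2, 7.35 and 2.28 CPM and had 1 read in the 12 livers. Golga7b, a cofactor of protein palmitoylation, was at 7.68, 5.13, 6.36, 4.5 and 1.95 CPM, and its 0 reads in the livers put it at least 600.3-fold higher in the tumours, against a floor of 3 counts over the liver group. Psrc1, a spindle-associated protein, was at 97.5, 54.3, 119.7, 97.5 and 3.89 CPM with 20 reads in all livers. T21 was the lowest tumour for Cdh17, Golga7b and Psrc1, though still above the highest liver. Cxcl17, Erich4, Slc12a1 and Stc1 completed the 12 largest increases with Igdcc4, which is described next. The 12 largest decreases were likewise taken among genes that were lower without overlap. They held 5 Cyp2c genes, 3 major urinary protein genes, Cyp4a14 and Elovl3, all described with their groups below, together with Nnmt and Lrtm1. Nnmt, which methylates nicotinamide, was at 1.01, 0.305, 2.32, 0.368 and 0.538 CPM against 3.74 to 171 CPM (median 12.8) (log2 fold change -5.18 ± 1.08, adjusted p = 0.000517), and Lrtm1, a leucine-rich repeat membrane protein, at 0.0335, 0.061, 4.21, 0.429 and 0.359 CPM against 14.6 to 74 CPM (median 49.1) (log2 fold change -5.51 ± 0.76, adjusted p = 6.19e-06). That the highest tumour lay below the lowest liver for each of these 12 follows from this choice.

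Of 17 tested genes listed as markers of fetal liver or hepatocellular carcinoma, 15 were higher, all 15 without overlap, and none was lower. The median log2 fold change was 5.75. The list was written with earlier results of these data known, so this count is a description only. Alpha-fetoprotein (Afp, chr5:90490737-90508907), the albumin-like serum protein of the fetal liver, was 399.9-fold higher, at 522, 255, 391, 569 and 47.2 CPM against 0.524 to 1.64 CPM (median 0.863) in the livers (log2 fold change 8.64 ± 0.40, adjusted p = 2.11e-12). Glypican 3 (Gpc3, chrX:52272426-52613950), a cell-surface proteoglycan, was 328-fold higher, at 269, 147, 240.4, 298 and 29.3 CPM against 0.0381 to 1.33 CPM (median 0.57) (log2 fold change 8.36 ± 0.48, adjusted p = 5.6e-11). Igdcc4 (chr9:65101486-65137940), an immunoglobulin-family membrane protein expressed in the embryo, was at 83.5, 94.4, 66.5, 102 and 50.6 CPM against 0.0318 to 0.167 CPM (median 0.0751) (log2 fold change 9.88 ± 0.20, adjusted p = 2.07e-17). T21 was the lowest tumour for all 3 genes, and farthest below the other 4 for Afp and Gpc3. Tspan8, a tetraspanin, followed at 161 to 509 CPM in the tumours and 0.283 to 2.29 CPM in the livers (log2 fold change 8.19 ± 0.37, adjusted p = 1.57e-12). H19, the imprinted fetal RNA, ran from 7.42 CPM in T18 to 169 CPM in T20 with 0.0339 to 0.584 CPM in the livers (log2 fold change 7.59 ± 0.51, adjusted p = 4.96e-10), and 2 predicted genes overlap its exons. Spink1 (7.44), Ly6d (7.59), Bex1 (6.75), Prom1 (5.75), Msantd3 (5.70), Golm1 (5.27) and Sox4 (4.42) were also higher. The fetal growth factor Igf2 stayed at 0.201, 0.458, 0.718, 0.398 and 1.28 CPM against 0.0724 to 0.875 CPM (median 0.293) and was not called (log2 fold change 1.02 ± 0.43, adjusted p = 0.0538), and the trefoil peptide Tff3 was not called either (log2 fold change 1.89 ± 0.88, adjusted p = 0.0788), with 1 liver at 381 CPM. Dlk1 did not pass the filter on low counts.

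Afp lies next to Alb on chromosome 5, and the starts of the 2 genes are 29844 bases apart. Their upstream sequences are shown because Afp was near 0 in the livers and Alb was the most counted gene of both tissues. The 250 bases before each start (RefSeq, GRCm38.p6, plus strand) lie at chr5:90490464-90490713 and chr5:90460620-90460869. Capitals mark GTTAAT on either strand, a half-site of the hepatocyte factor HNF1 that 7.486% of 27025 genes hold in this window, and each of the 2 sequences holds it once.
Afp: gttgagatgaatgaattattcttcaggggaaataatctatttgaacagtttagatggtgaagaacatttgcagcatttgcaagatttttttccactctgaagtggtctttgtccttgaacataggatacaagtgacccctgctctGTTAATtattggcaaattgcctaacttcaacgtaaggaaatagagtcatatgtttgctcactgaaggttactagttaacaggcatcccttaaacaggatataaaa
Alb: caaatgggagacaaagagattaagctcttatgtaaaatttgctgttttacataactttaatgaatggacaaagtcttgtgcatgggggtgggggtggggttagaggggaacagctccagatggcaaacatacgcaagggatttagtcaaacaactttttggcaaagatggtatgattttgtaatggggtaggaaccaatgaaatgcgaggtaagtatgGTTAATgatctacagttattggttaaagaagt
Alb itself was higher in the tumours, at 165320.2, 154257, 136427, 162689 and 141854 CPM against 56624 to 104748 CPM (median 85002) (log2 fold change 0.92 ± 0.20, adjusted p = 0.000717), without overlap.

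All 16 genes of the G2 phase and mitosis were higher, 14 of them without overlap, with a median log2 fold change of 2.97. Mki67, the standard proliferation marker, was 12.8-fold higher, at 12.7, 10.3, 9.56, 15.4 and 16 CPM against 0.474 to 2.02 CPM (median 0.936) (log2 fold change 3.67 ± 0.27, adjusted p = 2.2e-09). Top2a, the topoisomerase that untangles chromosomes, was at 7.58, 4.3, 3.65, 6.31 and 9.38 CPM against 0.127 to 1.69 CPM (median 0.571) (log2 fold change 3.16 ± 0.38, adjusted p = 1.2e-06). The mitotic cyclins Ccnb1 (3.95 ± 0.44) and Ccnb2 (3.30 ± 0.27), the spindle factor Tpx2 (3.26 ± 0.43), the kinases Plk1 (2.97 ± 0.49) and Aurkb (2.88 ± 0.36) and the cyclin-dependent kinase Cdk1 (2.13 ± 0.25) rose with them. Levels were low in absolute terms and similar across tumours, with Mki67 in T19 at 9.56 CPM and in T21 at 16 CPM.

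Among 16 genes of the G1/S transition and replication, 10 were higher and 1 lower (median 0.93). Cyclin D1 (Ccnd1), which passes mitogen signals to the cell cycle, was 8.69-fold higher, at 152, 137, 116, 145 and 251 CPM against 12.9 to 27.9 CPM (median 18.3) (log2 fold change 3.12 ± 0.17, adjusted p = 1.75e-11), with T21 the highest. Its exons overlap those of Oraov1 on the other strand. Cyclin E1 (Ccne1) was at 14.2, 12.6, 13.8, 17.9 and 13.2 CPM against 0.761 to 3.46 CPM (median 2.16) (log2 fold change 2.87 ± 0.22, adjusted p = 3.42e-09). The helicase subunit Mcm2 (2.39 ± 0.18) and the licensing factor Cdc6 (2.41 ± 0.37) rose, Gins1 fell (-0.48 ± 0.18, a call lost without T18 or T19), and Pcna (log2 fold change -0.16 ± 0.13, adjusted p = 0.33) and Mcm7 (log2 fold change 0.32 ± 0.16, adjusted p = 0.0954) were not called. Replication genes thus differed among themselves in direction, which mitotic genes did not.

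The upstream sequence of Cdk1 is shown as an example of the mitotic set. Capitals mark CCAAT, the NF-Y box, and TTTGAA, the core of the CHR element, on either strand, in the 250 bases before the start (chr10:69352913-69353162, minus strand, GRCm38.p6). Of 12 G2/M genes matched in the RefSeq table (of 16), 11 held CCAAT and 7 held TTTGAA, against 37.49% and 18.26% of 27025 genes.
Cdk1: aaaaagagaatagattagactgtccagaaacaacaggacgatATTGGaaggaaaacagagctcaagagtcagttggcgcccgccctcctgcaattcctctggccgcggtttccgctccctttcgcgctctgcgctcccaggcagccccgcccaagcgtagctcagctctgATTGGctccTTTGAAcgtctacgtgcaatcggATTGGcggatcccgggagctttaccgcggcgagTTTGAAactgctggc
A match of these letters describes the window only and is not a measure of binding.

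Genes that the MAPK cascade induces were higher in 15 of 17 members tested and lower in none, 12 without overlap, with a median log2 fold change of 2.05. Among the feedback phosphatases and inhibitors, Dusp5 was 80.5-fold higher, at 34.9, 22.5, 49.8, 46.9 and 9.43 CPM against 0.223 to 0.99 CPM (median 0.336) (log2 fold change 6.33 ± 0.33, adjusted p = 1.28e-11), and Dusp6 (2.24 ± 0.20), Spry1 (2.59 ± 0.15), Spry2 (2.75 ± 0.12) and Dusp4 (1.70 ± 0.30) rose too. The ETS factor Etv4 was at 5.37, 3.14, 6.33, 4.38 and 0.359 CPM against 0 to 0.206 CPM (median 0.102) (log2 fold change 5.27 ± 0.50, adjusted p = 6.04e-08). T21 was the lowest tumour for both Dusp5 and Etv4. Among immediate early genes, Egr1 was at 211, 174, 165, 276 and 194 CPM against 2.77 to 46.4 CPM (median 9.43) (log2 fold change 3.83 ± 0.48, adjusted p = 1.98e-06), Ier3 rose by 3.92 on the log2 scale, and Fos rose too, to 10.6 to 18.4 CPM against 0.167 to 3.09 CPM. Phlda1 (log2 fold change -0.34 ± 0.30, adjusted p = 0.362) and Etv1 (log2 fold change 0.11 ± 0.30, adjusted p = 0.776) were not called. The transcripts of the 2 oncogenes named above were not called. Hras was at 24.5, 24.7, 54.5, 41.4 and 30.4 CPM against 23.8 to 36.9 CPM (median 30.3) (log2 fold change 0.26 ± 0.16, adjusted p = 0.182) and Braf was at 22.1, 26.3, 16.2, 18 and 24.6 CPM against 14.6 to 26.5 CPM (median 23.7) (log2 fold change -0.07 ± 0.13, adjusted p = 0.683). Of 12 MAPK genes matched, 0 held the AP-1 letters TGANTCA in the 250 bases upstream, which 7.819% of all genes hold.

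The list of p53 targets, which also held Trp53 itself and Cdkn2a, was higher in 15 of 18 members, 14 without overlap, and lower in 2. Its median log2 fold change was 1.74. The cell cycle inhibitor Cdkn1a (p21) was 31.7-fold higher, at 101, 99.1, 84.3, 67 and 21.5 CPM against 0.764 to 7.7 CPM (median 1.37) (log2 fold change 4.98 ± 0.46, adjusted p = 3.76e-08). Phlda3, an inhibitor of AKT, was at 24.1, 17.6, 33.9, 21.6 and 2.56 CPM against 0.273 to 0.635 CPM (median 0.356) (log2 fold change 5.61 ± 0.35, adjusted p = 1.89e-10). Eda2r and Tnfrsf10b, both of the TNF receptor family, rose 36.3-fold and 32.1-fold respectively. Cdkn2a, which encodes p16 and p19Arf and lies upstream of p53 rather than among its targets, was at 41.3, 24.6, 31.8, 23.3 and 3.82 CPM against 0.167 to 0.99 CPM (median 0.45) (log2 fold change 5.65 ± 0.39, adjusted p = 8.48e-10). In Cdkn1a, Phlda3 and Cdkn2a, T21 was the lowest tumour, by 3-fold or more. Mdm2 (1.61 ± 0.15), Ccng1 (1.24 ± 0.16) and Bax (1.46 ± 0.16) rose less, Sesn1 (-0.46 ± 0.10) and Fas (-0.53 ± 0.20, a call lost without T20, T21 or N5) fell, and Bbc3 was not called (log2 fold change -0.12 ± 0.24, adjusted p = 0.696). The Trp53 transcript itself was higher by 0.80.

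Stress genes were higher in 8 of 13 members and lower in none (median 0.88). The increases were led by serine and asparagine synthesis: Phgdh, the first enzyme of serine synthesis, was at 22.4, 15.3, 14.4, 27.4 and 25.1 CPM against 0 to 0.305 CPM (median 0.14) (log2 fold change 7.13 ± 0.31, adjusted p = 1.24e-12), Psat1 was 27.5-fold higher and Asns, asparagine synthetase, ran from 6.1 CPM in T19 to 62.8 CPM in T21 against 0.233 to 3.23 CPM in the livers. The pseudokinase Trib3 (3.32 ± 0.29) and the factor Atf3 (3.02 ± 0.29) rose, whereas the endoplasmic reticulum chaperone Hspa5 (log2 fold change 0.00 ± 0.29, adjusted p = 0.996) and Herpud1 (log2 fold change 0.02 ± 0.16, adjusted p = 0.918) were not called.

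Beta-catenin targets and pericentral genes were lower in 15 of 18 members, 14 without overlap, and higher in 1, with a median log2 fold change of −2.23. Glutamine synthetase (Glul, chr1:153899944-153909723), which captures ammonia in the last hepatocyte rows around the central vein, was 9.65-fold lower, at 43.5, 34.9, 152, 119 and 86.5 CPM against 502 to 1089.9 CPM (median 859) (log2 fold change -3.27 ± 0.32, adjusted p = 7.75e-08). Ornithine aminotransferase (Oat) was at 7.35, 3.36, 29.8, 15.7 and 13.5 CPM against 159 to 452 CPM (median 291) (log2 fold change -4.41 ± 0.42, adjusted p = 5.88e-08). Cyp2e1, the main activator of DEN, was at 69.9, 3.27, 1234, 451 and 239.8 CPM against 4307 to 9570.3 CPM (median 5736) (log2 fold change -3.83 ± 0.79, adjusted p = 0.000449), and Cyp1a2, which metabolises caffeine and aromatic amines, was at 3.09, 2.99, 66.7, 25.2 and 17 CPM against 303 to 751 CPM (median 398) (log2 fold change -4.33 ± 0.63, adjusted p = 1.12e-05). T17 and T18 were the lowest tumours for Glul, Oat, Cyp2e1 and Cyp1a2, and T19 the highest. Axin2 (-2.30 ± 0.41), Lgr5 (-2.16 ± 0.46), Notum (-2.43 ± 0.41) and Sp5 (-2.42 ± 0.60), direct targets of the pathway in many tissues, fell too. The T-cell factor Tcf7 rose (1.02 ± 0.21), and Rnf43 (log2 fold change -0.03 ± 0.15, adjusted p = 0.889) and Slc13a3 (log2 fold change -0.07 ± 0.41, adjusted p = 0.906) were not called. Ctnnb1, the beta-catenin transcript, was higher, at 234 to 359 CPM against 185 to 240.3 CPM (log2 fold change 0.54 ± 0.10, adjusted p = 0.000114). Of 12 matched members, Slc1a2, Lect2 and Sp5 held the TCF letters CTTTGAT upstream, against 3.719% of all genes.

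Of 11 periportal genes, 5 were lower and 2 higher (median −0.30). Cyp2f2, the periportal P450, was at 21.7, 33.2, 138, 32 and 45.9 CPM against 538 to 1016 CPM (median 728) (log2 fold change -3.76 ± 0.38, adjusted p = 1.3e-07), and Pck1 (-1.71 ± 0.29), the serine dehydratase Sds (-1.47 ± 0.36) and the immunoglobulin receptor Pigr (-1.26 ± 0.26) fell. E-cadherin (Cdh1) was 11-fold higher, at 201, 189.8, 141, 181 and 183 CPM against 4.74 to 45.1 CPM (median 11.3) (log2 fold change 3.45 ± 0.43, adjusted p = 1.76e-06). Hal (log2 fold change -0.23 ± 0.11, adjusted p = 0.109) and Uroc1 (log2 fold change -0.16 ± 0.14, adjusted p = 0.352) were not called.

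Of 21 cytochrome P450 genes tested, 15 were lower, 12 without overlap, and 3 higher (median −1.30). The Cyp2c genes, which oxidise drugs, steroids and fatty acids, held the largest decreases: Cyp2c29 was at 1.04, 0.519, 76.6, 23.7 and 8.51 CPM against 396 to 1234 CPM (median 986) (log2 fold change -5.36 ± 0.89, adjusted p = 5.67e-05), Cyp2c39 was at 0.302, 0.214, 2.32, 0.643 and 0.512 CPM against 16.4 to 98.1 CPM (median 59.9) (log2 fold change -6.17 ± 0.59, adjusted p = 5.95e-08), and Cyp2c38, Cyp2c50 and Cyp2c54 fell by 5.37 to 5.95 on the log2 scale. These genes are near-identical copies, so the split of reads among them is uncertain. The 3 higher members, Cyp2a4, Cyp2b9 and Cyp2b13, are forms that the female mouse liver makes at higher level. Cyp2a4, a steroid 15-alpha hydroxylase, was 214-fold higher, at 5964, 6223, 4896, 6073 and 4577 CPM against 0.286 to 104 CPM (median 9.19) (log2 fold change 7.74 ± 0.96, adjusted p = 1.83e-06). Its close relative Cyp2a5, the coumarin hydroxylase, was at 395, 595, 432, 410.1 and 549 CPM against 56 to 1019 CPM (median 568) and was not called (log2 fold change -0.11 ± 0.42, adjusted p = 0.841). Cyp2b9 was at 279, 367, 232, 359 and 320.2 CPM against 0.35 to 112 CPM (median 12) (log2 fold change 3.22 ± 0.82, adjusted p = 0.00288). The drug-metabolising Cyp3a11 (log2 fold change -1.04 ± 0.52, adjusted p = 0.102) and Cyp2a12 (log2 fold change 0.19 ± 0.14, adjusted p = 0.257) were not called.

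Cyp2a4 and Cyp2a5 are shown side by side because Cyp2a4 was called and Cyp2a5 was not, while their upstream sequences are nearly the same. Over 249 compared bases 245 were identical (98.39%), and capitals mark the 4 bases that differ. Both are on the plus strand of GRCm38.p6, at chr7:26306943-26307191 and chr7:26835089-26835337.
Cyp2a4: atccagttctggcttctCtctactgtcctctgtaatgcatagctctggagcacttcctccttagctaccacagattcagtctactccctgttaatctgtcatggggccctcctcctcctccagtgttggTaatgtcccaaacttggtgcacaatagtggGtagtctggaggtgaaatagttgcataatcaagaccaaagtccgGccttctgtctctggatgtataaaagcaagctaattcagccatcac
Cyp2a5: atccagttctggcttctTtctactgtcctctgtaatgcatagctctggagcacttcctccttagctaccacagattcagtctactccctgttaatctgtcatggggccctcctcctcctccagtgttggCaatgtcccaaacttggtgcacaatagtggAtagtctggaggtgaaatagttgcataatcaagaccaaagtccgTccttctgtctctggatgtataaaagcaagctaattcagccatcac
Their transcripts are also close copies, and reads shared by both genes could be lost or misassigned in the authors' counts.

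Sex-biased genes moved in opposite directions. Of 12 male-biased genes tested, 11 were lower, 9 without overlap, and 0 higher (median −3.18), and of 8 female-biased genes tested (of 14 listed) 5 were higher and 0 lower (median 2.99). Slco1a1, a male-biased organic anion carrier, was at 7.85, 0.488, 133, 36.2 and 22.4 CPM against 506 to 863 CPM (median 676) (log2 fold change -4.08 ± 0.75, adjusted p = 0.000144). The steroid dehydrogenase Hsd3b5 was at 2.21, 0.244, 68.9, 16.7 and 5.12 CPM against 174 to 522 CPM (median 245) (log2 fold change -3.85 ± 0.81, adjusted p = 0.000558), and the fatty acid elongase Elovl3 was at 0.201, 0.0305, 10.9, 1.96 and 0.41 CPM against 22.5 to 599 CPM (median 48.2) (log2 fold change -5.58 ± 1.34, adjusted p = 0.00179). The highest livers for Elovl3 were N11 and N12, at 599 and 584 CPM, against 22.5 to 57.9 CPM in the other 10. T19 was the highest tumour for all 3 genes. Mup20 was the male-biased exception (log2 fold change 0.55 ± 0.36, adjusted p = 0.205). Other major urinary protein genes fell, Mup9 at 1.78, 5.8, 94.6, 13.1 and 5.3 CPM against 288 to 2252 CPM, Mup13 at 1.98, 1.59, 55.2, 14.1 and 5.84 CPM against 263 to 1359 CPM and Mup10 at 0.235, 0.58, 3.29, 0.735 and 0.845 CPM against 12.6 to 128 CPM, and as near-identical copies their split is uncertain. Together the Mup genes held 0.0511% to 0.345% of counts in the tumours and 0.845% to 1.72% in the livers (exact permutation test, p = 0.000323, the smallest possible). Among female-biased genes, Cyp17a1, the steroid 17-hydroxylase, was at 44.5, 78.3, 61, 72.8 and 5.89 CPM against 1.21 to 9.67 CPM (median 2.89) (log2 fold change 3.90 ± 0.48, adjusted p = 1.5e-06), and Abcd2 rose by 2.76. Cyp3a44 (log2 fold change 0.66 ± 0.29, adjusted p = 0.0638) and the female-specific repressor Cux2 (log2 fold change -2.02 ± 0.93, adjusted p = 0.0753) were not called.

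In the growth hormone and IGF axis, which sets sex bias in the mouse liver, 6 of 12 genes were lower and 2 higher (median −0.93). The receptor Ghr was at 166, 184, 233, 181 and 234 CPM against 315 to 739 CPM (median 631) (log2 fold change -1.56 ± 0.17, adjusted p = 3.86e-07), its product Igf1 at 188, 256, 308, 264 and 308 CPM against 608 to 916 CPM (median 740.4) (log2 fold change -1.49 ± 0.13, adjusted p = 1.84e-08) and the IGF carrier subunit Igfals at 5.17, 7.23, 37.3, 12.7 and 10.5 CPM against 119 to 159 CPM (median 135) (log2 fold change -3.21 ± 0.35, adjusted p = 3.75e-07). The prolactin receptor Prlr fell (-2.12 ± 0.19). None of these 4 overlapped between groups. Igfbp1, an IGF-binding protein released in fasting and injury, was 27.9-fold higher, at 1289, 897, 741, 954 and 273 CPM against 4.3 to 122 CPM (median 25) (log2 fold change 4.80 ± 0.57, adjusted p = 1.07e-06), and Igfbp3 was at 24 to 95.2 CPM against 4.67 to 18.7 CPM (log2 fold change 2.25 ± 0.29, adjusted p = 3.15e-06). The STAT5 feedback gene Cish was at 3.79, 4.06, 3.78, 3.8 and 33.6 CPM against 1.24 to 71.4 CPM (median 35.5) and was not called (log2 fold change -1.81 ± 0.81, adjusted p = 0.0709), whereas without T21 it was called at −3.18 (adjusted p = 0.00539), as it was by DESeq2 and without N8 or without N10.

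Bile acid synthesis and transport genes were lower in 12 of 17 members, all 12 without overlap, and higher in 2 (median −2.15). Cyp7a1, the rate-limiting enzyme of synthesis, was at 4.43, 0.0305, 62.8, 30.2 and 3.89 CPM against 77.9 to 856 CPM (median 309) (log2 fold change -4.08 ± 0.95, adjusted p = 0.00139). Cyp8b1 (-3.35 ± 0.65), which sets the cholic acid share, and Cyp7b1 (-3.35 ± 0.67) fell, as did the uptake carriers Slco1b2 (33.6, 13.2, 283, 117 and 127 CPM against 960.4 to 1702 CPM (median 1497)) and Slc10a1 (-2.39 ± 0.25). Export pumps differed among themselves: Abcc2 (0.57 ± 0.16) and Abcc4 (2.18 ± 0.27) rose, whereas Abcb11 fell (-1.70 ± 0.21) and Abcc3 was not called (log2 fold change 0.16 ± 0.24, adjusted p = 0.61).

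Of 26 genes of the urea cycle and amino acid catabolism 24 were lower, 20 without overlap, and 1 higher (median −1.68). Cps1, the entry enzyme of the urea cycle, was at 1252, 1240.4, 925, 742 and 1652 CPM against 2418 to 5022 CPM (median 3548) (log2 fold change -1.62 ± 0.20, adjusted p = 1.34e-06). Otc (-2.18 ± 0.18), Ass1 (-2.30 ± 0.17) and Asl (-1.79 ± 0.18) fell with it, whereas Arg1, the last enzyme, fell less (-0.44 ± 0.14). The methyl-group enzyme Bhmt was at 154, 230.3, 578, 261 and 415 CPM against 1457 to 4744 CPM (median 2706) (log2 fold change -3.11 ± 0.35, adjusted p = 5.18e-07), the tyrosine enzyme Hpd at 65.7, 129, 550.2, 208 and 215 CPM against 1632 to 2492 CPM (median 2024) (log2 fold change -3.08 ± 0.36, adjusted p = 8.08e-07) and the proline enzyme Prodh fell (-3.35 ± 0.41). Glutamate dehydrogenase, Glud1, was the member that rose (log2 fold change 0.80 ± 0.13, adjusted p = 3.71e-05).

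Genes of lipid droplets and PPAR-gamma were higher in 7 of 12 members and lower in 2 (median 1.98). Cidec, a droplet-fusing protein, was 50.7-fold higher, at 42.4, 43.3, 35.7, 45.6 and 23.2 CPM against 0.343 to 1.46 CPM (median 0.572) (log2 fold change 5.66 ± 0.24, adjusted p = 9.31e-13). Its relative Cidea was at 16.3, 13.2, 13.4, 21.3 and 1.41 CPM with 14 reads in all livers, T21 being lowest. Lpl (2.58 ± 0.33), Fabp4 (2.46 ± 0.22), Plin2 (1.91 ± 0.28) and Pparg (2.05 ± 0.37) rose, and Plin5 (-0.63 ± 0.15) fell. Of 15 lipogenesis genes 1 was higher and 5 lower (median −0.38), and 3 were lower without T17 or without T19. Scd2, the fetal desaturase, was 41.9-fold higher, at 453, 452, 311, 381 and 405 CPM against 3.4 to 18.6 CPM (median 8.29) (log2 fold change 5.39 ± 0.33, adjusted p = 1.5e-10), whereas the adult desaturase Scd1 (log2 fold change -0.65 ± 0.70, adjusted p = 0.461) and fatty acid synthase Fasn (log2 fold change -0.28 ± 0.45, adjusted p = 0.625) were not called, with livers from 1136 to 42596 CPM for Scd1. Me1 (-2.21 ± 0.46) and Thrsp (-2.12 ± 0.56) fell.

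Fatty acid oxidation genes were lower in 8 of 17 members and higher in 2 (median −0.34), and cholesterol genes higher in 6 of 15 and lower in 2 (median 0.42). Cyp4a14, a PPAR-alpha target, was at 0.436, 0.244, 1.04, 0.337 and 0.436 CPM against 1.35 to 65.4 CPM (median 22.6) (log2 fold change -5.49 ± 0.83, adjusted p = 2.01e-05). The pantetheinase Vnn1 rose by 3.55 ± 0.52, and the very long-chain dehydrogenase Acadvl fell (-0.77 ± 0.10). In cholesterol metabolism, the sterol cyclase Lss (1.20 ± 0.19) rose, Fdps (-0.51 ± 0.16) fell, and Hmgcs1 (log2 fold change 0.55 ± 0.34, adjusted p = 0.185) was not called.

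Of 17 glycolysis genes 6 were higher and 4 lower (median 0.11). The forms of fetal and non-liver tissues rose, Pfkp at 42, 23.9, 16.9, 14.2 and 21.7 CPM against 0.902 to 4.77 CPM (median 1.42) (log2 fold change 3.86 ± 0.31, adjusted p = 7.2e-09), Hk1 by 1.65 ± 0.18 and Pkm by 1.46 ± 0.24, and the adult liver pyruvate kinase Pklr fell (-0.95 ± 0.33). Without T17 Pklr was not called and 2 genes of the list were lower. Ldha (log2 fold change -0.08 ± 0.19, adjusted p = 0.759) was not called. Of 10 gluconeogenesis, glycogen and fructose genes, 6 were lower and 1 higher (median −0.73), with G6pc (-2.37 ± 0.68) and Fbp1 (-1.37 ± 0.15) lower and the glycogen synthase Gys2 (0.74 ± 0.18) higher.

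Of 15 lineage factors of the hepatocyte, 4 were lower, 1 higher and 10 not called (median −0.37), with 7 lower without T21 or without N9. Hnf4a, the master regulator of hepatocyte genes, was at 537, 543, 502, 489.6 and 547 CPM against 410.0 to 628 CPM (median 464) and was not called (log2 fold change 0.14 ± 0.09, adjusted p = 0.222). The xenobiotic receptor Nr1i3 (CAR) was 7.43-fold lower, at 15.6, 8.36, 70.0, 42.1 and 24.2 CPM against 116 to 365 CPM (median 244) (log2 fold change -2.89 ± 0.42, adjusted p = 1.26e-05), and Cebpa (-0.55 ± 0.13) and Nr1h4 (-0.66 ± 0.11) fell. Secreted proteins were higher in 4 of 16 and lower in 3: transferrin (Trf, 1.71 ± 0.21), Ahsg (1.51 ± 0.16) and Apoa1 (1.03 ± 0.15) rose with Alb, Apoa2 (-0.86 ± 0.20) and antithrombin (Serpinc1, -0.79 ± 0.12) fell, and Ttr (log2 fold change -0.30 ± 0.19, adjusted p = 0.202) was not called. All 10 hepatocyte markers were detected in every tumour, with a summed level of 176688 to 207275 CPM against 85536 to 141613 CPM in the livers, most of it Alb in both. Of the 10, 5 were lower, 4 of them without overlap, and 2 higher (median −0.44), and all 5 tumours had a lower median over the list (−0.80 to −0.42) than any liver (−0.23 to 0.07).

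Glutathione and NRF2 genes went both ways, with 8 of 18 higher and 5 lower (median 0.23). G6pdx (2.20 ± 0.28), Nqo1 (1.46 ± 0.28) and the exporter Abcc4 rose, Gstm2 (-2.20 ± 0.22) and Gsta3 (-1.83 ± 0.15) fell, and Gstp1 was not called (log2 fold change -0.34 ± 0.22, adjusted p = 0.204). Iron genes were lower in 7 of 11 and higher in 2 (median −0.74). Hepcidin (Hamp), the hormone that limits iron export, was at 18, 25.8, 117, 29.5 and 84 CPM against 139.8 to 1141 CPM (median 421) (log2 fold change -3.13 ± 0.57, adjusted p = 0.000143), and the iron exporter Slc40a1 (-0.98 ± 0.09) fell with it. Imprinted genes were higher in 11 of 15 and lower in 2 (median 1.49). Meg3 and Rian, non-coding RNAs of one imprinted locus, were uneven among the tumours, with Meg3 at 1.51, 0.183, 1.83, 11.9 and 4.79 CPM against 0 to 0.727 CPM (median 0.286) (log2 fold change 3.63 ± 0.60, adjusted p = 4.72e-05), so that T18 lay within the liver range.

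The counts of the acute phase, interferon and clock lists differed without the livers that stood apart. Acute phase genes were lower in 9 of 16 members and higher in 1, but without N5, N6 and N7 the counts were 4 lower and 3 higher. Saa1 was at 60.8, 142, 59.7, 35.1 and 44 CPM against 49.6 to 19544 CPM (median 326) (log2 fold change -5.49 ± 1.71, adjusted p = 0.0114), and the log2 fold change was -1.63 (adjusted p = 0.0278) without those 3 livers. Il1rn, the interleukin 1 receptor antagonist, was the member that rose (log2 fold change 4.08 ± 0.47, adjusted p = 8.23e-07). Of 13 interferon-stimulated genes, 2 were higher (Ifit2, 1.86 ± 0.35, and Ifi44, 1.46 ± 0.45) and 1 lower (Bst2, -0.41 ± 0.16, not called in 15 of 28 other settings), but without N6 alone 9 were higher and none lower, and the median went from 0.33 to 1.08. Isg15 was not called with N6 (log2 fold change -0.38 ± 0.73, adjusted p = 0.69) and was 0.87 higher without it. NF-kB and chemokine genes were 3 higher and 1 lower of 11 in all livers, and 7 higher and 1 lower without N6. Relb (2.52 ± 0.24) and Icam1 (1.72 ± 0.38) rose and Cxcl12 fell (-1.41 ± 0.13). Antigen presentation genes were 4 higher of 12, 8 without N6, and 1 without N11 and N12, without T17 or without T19. Of 13 clock genes, 1 was higher (Per1, 1.27 ± 0.43, a call lost without T20) and 1 lower (Hlf, -0.55 ± 0.18), and without N11 and N12 2 were higher and 3 lower.

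**Figure D3:**
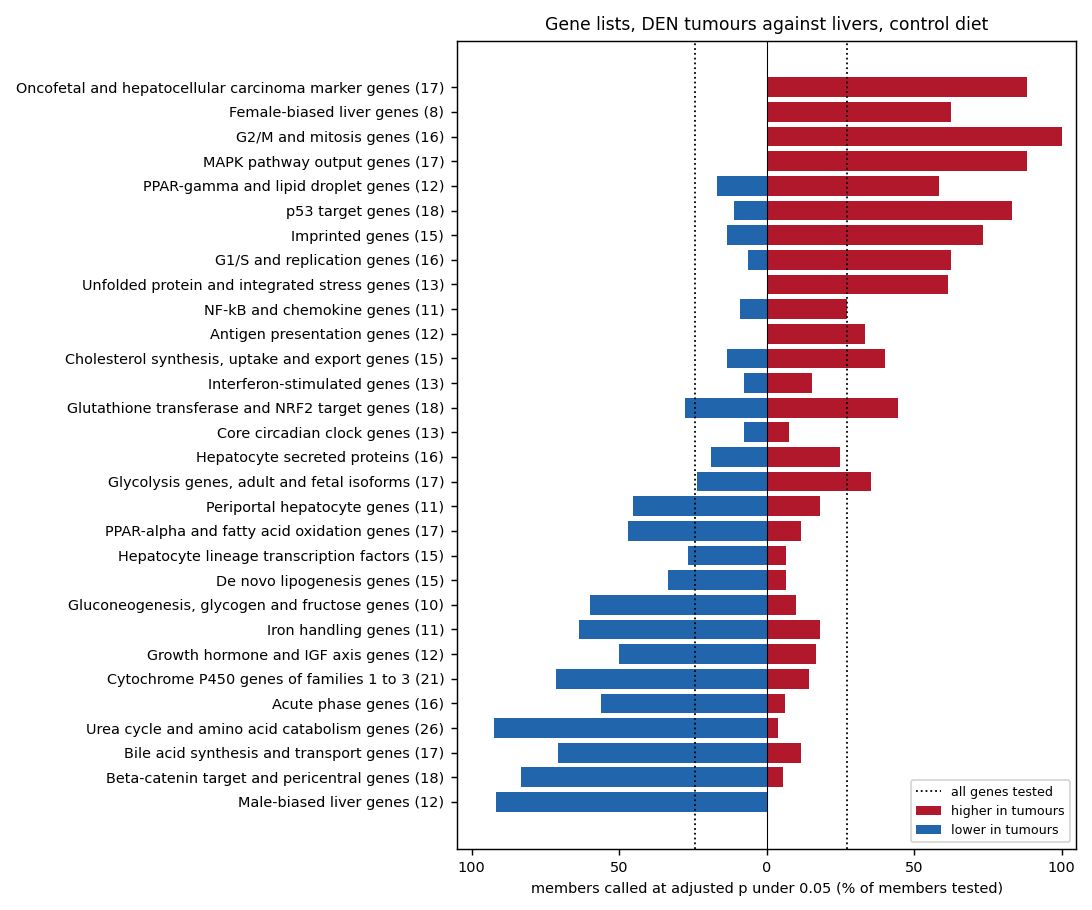
Percent of tested members called higher (red, to the right) or lower (blue, to the left) at an adjusted p under 0.05 for each gene list, with the number of members tested in brackets and lists ordered by their median log2 fold change. Dotted lines show the share over all 14731 genes, 27.3% higher and 24.4% lower, and all 16 G2/M genes were higher while 24 of 26 urea and amino acid genes were lower.

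Markers of other liver cells also differed, and in bulk tissue fewer cells of a type and less RNA per cell cannot be told apart. Resident Kupffer cell markers were lower in 8 of 9 genes (median −1.59), or in 3 with all 6 groups of the series in the fit, their summed level being 28.4 to 161 CPM in the tumours and 189.7 to 368 CPM in the livers. The haemoglobin scavenger receptor Cd163 was at 0.0335, 0.0305, 0.424, 0.796 and 0.564 CPM against 1.32 to 9.32 CPM (median 4.63) (log2 fold change -3.62 ± 0.58, adjusted p = 3.27e-05), and Timd4 (-1.82 ± 0.31) and Fcna (-2.12 ± 0.29) fell, while the pan-macrophage Adgre1 was not called (log2 fold change -0.31 ± 0.27, adjusted p = 0.359). Macrophage and lipid-associated macrophage markers were higher in 9 of 13 and lower in none (median 1.39). Their summed level was 377 to 633 CPM in the tumours and 106 to 313 CPM in the livers. Cd63 alone gave 165 to 219 CPM of the tumour sums and 2.17 to 5.9 CPM of the liver sums, so the gap between the sums rests largely on this gene. Cd63, a tetraspanin that many cell types make, was at 185, 202, 169, 219 and 165 CPM against 2.17 to 5.9 CPM (median 3.75) (log2 fold change 5.63 ± 0.15, adjusted p = 1.61e-15). Itgax (CD11c) was at 7.61, 7.17, 4.34, 1.84 and 5.33 CPM against 0.0942 to 1.73 CPM (median 0.302) (log2 fold change 3.66 ± 0.46, adjusted p = 2.38e-06). Gpnmb was at 57.2, 2.08, 1.86, 0.735 and 5.38 CPM, high in T17 only, against 0 to 4 CPM (median 0.312), and Trem2 at 5.94, 0.916, 1.04, 0.674 and 1.43 CPM against 0.109 to 1.77 CPM (median 0.37) (log2 fold change 2.12 ± 0.51, adjusted p = 0.00186). The general macrophage genes Cd68 (log2 fold change 0.30 ± 0.27, adjusted p = 0.364), Lyz2 (log2 fold change -0.12 ± 0.33, adjusted p = 0.784) and C1qa (log2 fold change -0.44 ± 0.20, adjusted p = 0.0739) were not called. The part of macrophage content in the gene changes above was not tested.

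Of 7 capillary and vascular genes 6 were higher (median 1.04), with Esm1, a marker of sprouting tip cells, at 20.0, 54, 7.05, 10.0 and 14.6 CPM against 0.0362 to 2.06 CPM (median 0.25) (log2 fold change 5.81 ± 0.57, adjusted p = 8.53e-08) and Cd34 at 7.92, 15.9, 2.67, 5.73 and 9.68 CPM against 0.318 to 1.05 CPM (median 0.639) (log2 fold change 3.68 ± 0.30, adjusted p = 7.97e-09). Of 9 sinusoidal genes 3 were higher and 3 lower (median −0.25), Lyve1 rising (2.25 ± 0.36) and the lectin Clec4g falling (-1.02 ± 0.23). Matrix and stellate genes were higher in 10 of 14 and lower in 2 (median 1.88). Type I collagen, Col1a1, was at 109, 9.86, 20.7, 19.5 and 20.3 CPM against 0.377 to 9.61 CPM (median 1.28) (log2 fold change 4.29 ± 0.60, adjusted p = 8.17e-06), with T17 above the others, and the quiescent stellate markers Lrat (-0.97 ± 0.31) and Dcn (-1.14 ± 0.28) fell. Of 11 lymphocyte and plasma cell genes 5 were higher and 1 lower (median 0.55), with the immunoglobulin chain Jchain at 40.7, 16.1, 15.4, 3.65 and 59.5 CPM against 1.73 to 7.47 CPM (median 3.96). None of 4 neutrophil genes was called. Of 7 cholangiocyte genes 2 were higher, Krt23 (4.68 ± 0.46) and Epcam (1.16 ± 0.33), or 4 without T21, N11 or N12, and Sox9 was not called (log2 fold change 0.74 ± 0.33, adjusted p = 0.0673). Of the kidney markers only Slc12a1 passed the filter (18.9, 8.79, 8.94, 8.55 and 4.84 CPM), the other 5 reaching at most 2 counts in any library. Adipocyte markers summed to at most 0.109 CPM. Erythroid Hba-a1 rose (1.16 ± 0.33) and Alas2 fell (-2.52 ± 0.30).

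The 5 tumours were not alike. T17 and T18 were nearest to each other (distance 42.1) and T19 and T20 likewise (43.8). T19 lay nearest the livers (104 to 116) and T17 farthest (127 to 139). As the median over list members of the log2 difference from the liver median, the pericentral list was at −2.32 and −2.81 in T17 and T18 and at −0.97, −1.27 and −1.37 in T19, T20 and T21. Male-biased genes ran from −3.85 in T17 to −1.63 in T19, and bile acid genes from −2.70 in T17 to −1.51 in T19. T21 was lowest for oncofetal genes (3.93, against 4.46 to 5.17) and for the p53 list (0.88, against at least 1.68 in the other 4), but highest for G2/M genes (2.16, against 1.33 to 1.99). Matrix genes were highest in T17 (2.28, against 1.13 to 1.39), as were macrophage markers (2.26, against 0.61 to 1.65), and Kupffer markers were lowest in T18 (−3.05, against −1.67 to −0.73).

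**Figure D4:**
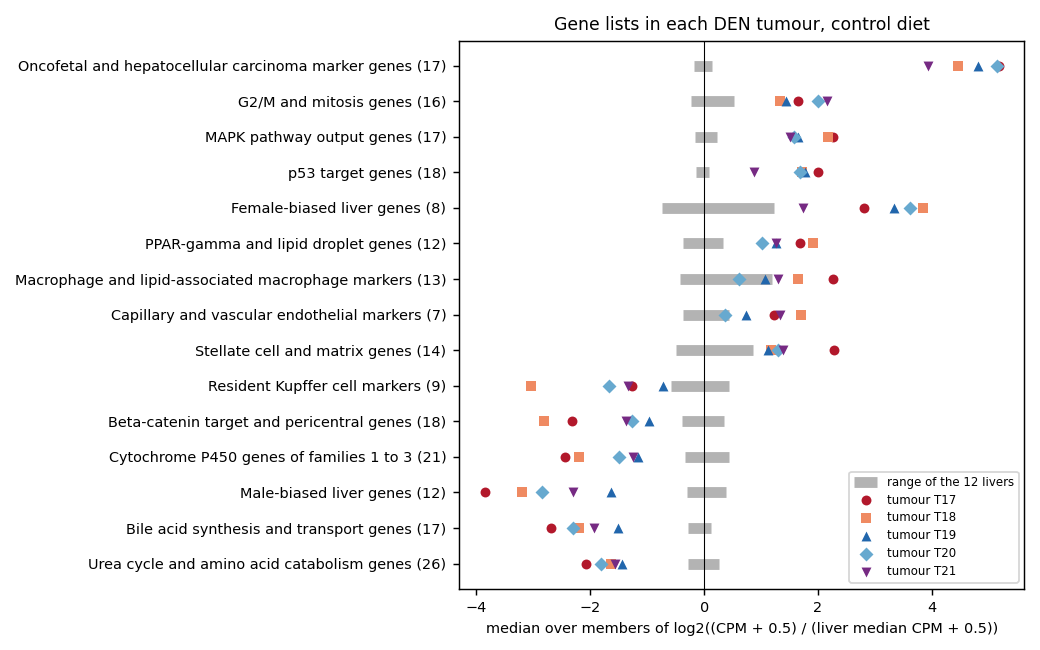
Median over list members of log2((CPM + 0.5)/(liver median CPM + 0.5)) in each DEN tumour (coloured symbols), with the range of the same measure over the 12 livers as a grey bar and the number of members in brackets. All 5 tumours lay outside the liver range in every list drawn except macrophage markers, where T19 and T20 lay within it, and capillary markers, where T20 did.

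Genes whose spread among tumours was largest against that among livers were Cdh17, Cxcl17, Psg18, Krt20 and Vmn2r3, all near 0 in the livers. The pregnancy-specific glycoprotein Psg18 was at 3.89, 2.75, 2.87, 3.4 and 17.8 CPM, high in T21, and the keratin Krt20 at 8.59, 12.3, 3.95, 14.6 and 1.41 CPM, low in T21.

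The tumour-minus-liver difference was then set against that of other tumours of the series by a test of the difference of differences. These were 8 tumours of mice given DEN on the ALIOS diet and 12 ALIOS tumours without DEN (1 more, T1, was left out because an earlier look found kidney transcripts in it), each against 11 ALIOS livers. Both tests use the same control-diet libraries, so they are not independent, and in the second diet and DEN change together. Against ALIOS DEN tumours 354 of 15606 genes (2.27%) were called, 192 higher and 162 lower, and against ALIOS tumours without DEN 83 of 15736 (0.527%), 69 higher and 14 lower. The first count was 174 without T17, 191 without T18 or without T20, 206 without N11 and N12 and 732 without T24, and the second 47 without T17, 52 without T20 and 50 with T1.

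Cidec rose more in the control-diet DEN tumours than in either ALIOS group, with a difference of differences of 3.93 ± 0.71, adjusted p = 0.00629 against ALIOS DEN tumours and 3.47 ± 0.63, adjusted p = 0.00452 against those without DEN. Its livers were at 0.343 to 1.46 CPM on the control diet and 0.623 to 24.5 CPM on the ALIOS diet, and tumours were at 23.2 to 45.6 CPM on the control diet, 4.96 to 44.8 CPM with ALIOS and DEN and 6.95 to 52.6 CPM with ALIOS alone, so that the tumour ranges overlapped. Cyp2a4 was called in the same direction in both (5.28 ± 1.08, adjusted p = 0.00918 and 4.48 ± 0.92, adjusted p = 0.0117), with ALIOS livers at 56.4 to 1168 CPM. Rgs2, a brake on G-protein signalling, was at 96.8, 65.4, 79.1, 85.5 and 18.6 CPM in the tumours and 1.79 to 6.31 CPM in the livers, against 9.22 to 65.9 CPM in ALIOS DEN tumours, 2.52 to 17.9 CPM in ALIOS tumours without DEN and 2.42 to 10.3 CPM in ALIOS livers (2.62 ± 0.49, adjusted p = 0.0065 and 3.73 ± 0.39, adjusted p = 1.52e-07). Ccnd1 also rose more (2.15 ± 0.53, adjusted p = 0.0258 and 2.14 ± 0.44, adjusted p = 0.0117). Onecut2, a hepatocyte factor, fell more, at 13.3, 7.02, 24.5, 6.49 and 15.4 CPM against 65.8 to 164 CPM (-2.31 ± 0.39, adjusted p = 0.00629 against ALIOS DEN tumours), and so did the glycosyltransferase Ugt3a2 (-1.33 ± 0.19, adjusted p = 0.000934). Far2 (3.90 ± 0.69, adjusted p = 0.00629), Tmem86a (1.77 ± 0.31, adjusted p = 0.00629) and Asap2 (-2.62 ± 0.47, adjusted p = 0.00629) completed, with Cidec, Onecut2 and Ugt3a2, the 3 genes each way with the smallest p in that test. Cbr3 (3.13 ± 0.47, adjusted p = 0.000515), Xlr3a (7.49 ± 1.18, adjusted p = 0.000854), Pde8a (-0.61 ± 0.10, adjusted p = 0.00199), Paics (-0.70 ± 0.14, adjusted p = 0.00885) and Zbtb5 (-0.78 ± 0.16, adjusted p = 0.0116) did so with Rgs2 in the other test. Asap2 and the clock activator Arntl were uneven in both arms of that comparison. Asap2 was at 8.91 and 13.1 CPM in N11 and N12 against 1.96 to 3.88 CPM in the other 10 control-diet livers, and at 5.04 to 11.5 CPM in 7 of the 8 ALIOS DEN tumours against 1.53 to 2.69 CPM in the control-diet tumours. Arntl was at 11.3 to 33.6 CPM in 6 of the 8 ALIOS DEN tumours (T15, T16, T23, T25, T26 and T27), at 0.97 and 1.51 CPM in the other 2 and at 1.07 to 2.65 CPM in ALIOS livers, and the clock output gene Dbp was at 6.24 to 56.9 CPM in those 6 tumours and at 61.4 and 173 CPM in the other 2. Without N11 and N12 the difference of differences was −2.03 for Asap2 (adjusted p = 0.000855) and −3.23 for Arntl (adjusted p = 0.0147), both still called. The part of those 6 tumours in the other differences from ALIOS DEN tumours was not tested. Xlr3a was high in T18 and T20 only (0.134, 82.1, 0.457, 106 and 1.18 CPM). Far2 and Cbr3 were low in all groups. Far2 was at 0.128 to 2.57 CPM in the control-diet tumours, T21 being lowest and within the range of their livers (0 to 0.32 CPM). In ALIOS DEN tumours Far2 was at 0.0744 to 0.405 CPM. Cbr3 was at 0.461 to 3.23 CPM in the control-diet tumours and 0.0724 to 0.419 CPM in their livers. Exons of Far2, Asap2, Paics and Zbtb5 overlap those of another gene.

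Glul was lower in the control-diet tumours than in 4 of the 8 ALIOS DEN tumours, which stood at 561, 766, 18378 and 2389 CPM in T22, T23, T24 and T25 while the other 4 were at 25.1 to 85.6 CPM, close to the control-diet range. The difference of differences was -4.81 ± 1.17, adjusted p = 0.0253, and 7 of 18 pericentral genes were called with it. Without T24, of these 7 Oat was called (−2.72, adjusted p = 0.0404) and the other 6 were not, with Glul at −2.51 (adjusted p = 0.0558), while Znrf3, which had not been called, was. Without N11 and N12 5 of the 18 were called. Without T17 or without T18 0 of the 18 were called, Glul and Oat having adjusted p of 0.0511 to 0.0625. Against ALIOS tumours without DEN no pericentral gene was called, and Glul was at -1.53 ± 0.85, adjusted p = 0.424.

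**Figure D5:**
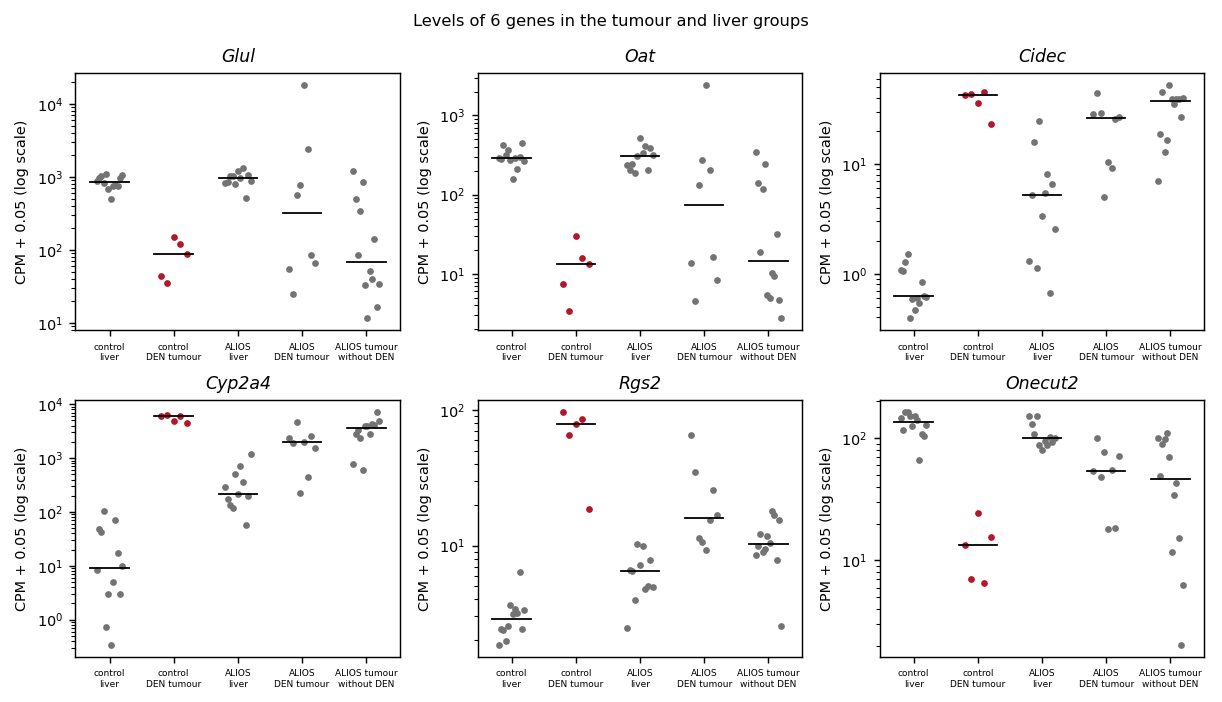
Levels of 6 genes, as CPM plus 0.05 on a log axis, in control-diet livers and DEN tumours (red), ALIOS livers, ALIOS DEN tumours and ALIOS tumours without DEN (T1 left out), one point per library, with the group median as a line. The control-diet tumours lay below every control-diet liver for Glul and Oat, whereas ALIOS DEN tumours spread from 25.1 to 18378 CPM for Glul. The control-diet livers had lower medians than the ALIOS livers for Cidec and Cyp2a4.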

How the data were processed

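RNA from liver and liver tumour of C3H/He mice was sequenced with a stranded, paired-end mRNA protocol. Per the labels and the study's methods, the authors aligned reads to mm10 with STAR, counted exonic reads per Gencode M6 gene with HTSeq and deposited raw counts (45792 rows); versions and the strand option were not given in the sources used here. Counts were filtered with filterByExpr, scaled by TMM and tested with edgeR 4.0.16 (R 4.3.3) by the quasi-likelihood test with Benjamini-Hochberg adjustment over all genes tested. Comparisons with ALIOS tumours were interaction terms over 4 groups. Alternatives were DESeq2 1.42.0, limma 3.58.1 (voom), other scalings and filters, and left-out libraries. On simulated data, 74% of 2-fold and 90% of 4-fold changes were recovered in the tumour against liver comparison, with 6 false calls among 14132 genes. The simulation gave both groups the spread of the livers and changed only 100 genes at each size. It therefore does not measure recovery or false calls under the spread of the tumours, or with as many changed genes as were called here. No 2 libraries of a group agreed within sampling noise. Gene lists were written by hand, and the members, lists and comparisons were chosen with earlier results of these data known. Named genes were the 12 largest changes each way without overlap and with a mean of at least 5 CPM, the 3 smallest p each way in each interaction, up to 4 called members each way and 2 uncalled members per list, a short set always named, and the 5 with the largest ratio of tumour to liver SD. Other list members were chosen after their values were seen. Some genes that the rule names are not reported here.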

Additional observations from a re-analysis of the deposited data

Results flagged for a closer look

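In 246 values tested (the levels of the named genes on the log2 scale and the depth measures), 1 of the 5 tumours stood apart from the other 4 in 20. The rule was a ratio above Dixon's 95% critical value of 0.71, which about 1 in every 20 independent values would pass by chance. The genes were partly chosen after their values were seen, and genes of a shared list may vary together, so the values are not independent. The tumour that stood apart was T21 in 15, T18 and T20 in 2 each and T19 in 1. In T21 the levels in CPM were 21.5 for Cdkn1a, 3.82 for Cdkn2a, 1.41 for Cidea, 33.6 for Cish, 5.89 for Cyp17a1, 7.2 for Ier3, 124 for Ly6d, 40.2 for Mdm2, 2.56 for Phlda3, 144 for Pigr, 17.8 for Psg18, 3.89 for Psrc1, 18.6 for Rgs2, 8.28 for Spink1 and 5.12 for Tnfrsf10b. The others were Clec4g at 8.79 CPM in T18, Erich4 at 33.4 CPM in T20, Lrtm1 at 4.21 CPM in T19, Slc13a3 at 1.77 CPM in T18 and Slc40a1 at 75.3 CPM in T20.

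The tumour against liver difference of 36 named genes differed from that of ALIOS tumours with DEN by the edgeR interaction term. The signed log2 fold change was higher on the control diet, by the difference in brackets, for Xlr3a (5.71), Cyp2a4 (5.28), Cyp2b13 (4.73), Vmn2r3 (4.13), Cidec (3.93), Far2 (3.90), Cidea (3.55), Ly6d (3.15), Pparg (3.13), Itgax (3.03), Spink1 (2.94), Cbr3 (2.94), Rgs2 (2.62), Etv4 (2.46), Jchain (2.40), Cdc6 (2.38), Ccnd1 (2.15), Cd63 (1.79), Tmem86a (1.77) and Nqo1 (1.72). It was lower on the control diet for Elovl3 (−6.93), Cyp4a14 (−5.20), Arntl (−5.06), Glul (−4.81), Cyp2c39 (−4.75), Oat (−4.74), Notum (−4.41), Axin2 (−4.24), Cyp2c38 (−4.07), Lgr5 (−3.68), Gstm2 (−2.67), Asap2 (−2.62), Onecut2 (−2.31), Ugt3a2 (−1.33), Abcb11 (−1.02) and Zbtb5 (−0.74). A lower value can be a larger decrease, as for Onecut2 and Ugt3a2. Arntl and Elovl3 were highest among control-diet livers in N11 and N12, and Arntl was also high, at 11.3 to 33.6 CPM, in 6 of the 8 ALIOS DEN tumours. Without N11 and N12, Arntl was at −3.23 and called and Elovl3 at −5.22 and not called. The tumour against liver difference of 15 named genes differed from that of ALIOS tumours without DEN by the edgeR interaction term. Diet and DEN change together in it. The signed log2 fold change was higher in the control-diet DEN tumours, by the difference in brackets, for Xlr3a (7.49), Cyp2a4 (4.48), Cyp2b13 (4.04), Ly6d (3.81), Rgs2 (3.73), Cidec (3.47), Cbr3 (3.13), Spink1 (2.93), Ccnd1 (2.14), Nqo1 (1.90), Mcm2 (1.72) and Tmem86a (1.28). It was lower for Zbtb5 (−0.78), Paics (−0.70) and Pde8a (−0.61), which fell more in the control-diet DEN tumours.

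The only control-diet tumour without DEN, T7, entered no comparison. Its levels in CPM were 326 for Afp, 216 for Gpc3, 42.7 for Igdcc4 and 22.9 for Mki67, above every control-diet liver. It was a single library and was not tested.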

How the results depend on the processing

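The numbers of genes called in the tumour against liver comparison moved by more than 1.5 times only when at least a 2-fold change was asked for in addition (3177 genes, 1979 higher and 1198 lower). With each library left out in turn they were 6986 to 7652, with 3552 to 4086 higher and 3288 to 3815 lower, and no shared call changed direction under any alternative. The difference from ALIOS DEN tumours was less stable, with 657 genes by DESeq2 (335 higher and 322 lower), 732 without tumour T24 (403 and 329), 206 without N11 and N12 (119 and 87), and 174 (without T17) to 446 (without T21) with each control-diet tumour left out (114 to 239 higher and 58 to 207 lower). The difference from ALIOS tumours without DEN gave 237 genes by DESeq2 (173 and 64), 50 with tumour T1 (39 higher), 58 without N11 and N12 (49 and 9), and 47 (without T17) to 112 (without T21) with each control-diet tumour left out (40 to 94 higher and 7 to 18 lower). Of the genes reported singly 1 reversed. Isg15, uncalled at −0.38, was 0.81 by DESeq2, 0.87 without N6, 1.05 without N5, N6 and N7 and 1.08 without those 3, N11 and N12, called in each. With each library left out in turn, it ran from −0.48 to 0.87, and liver N6 was its highest library. Of 367 list and named genes called, 280 were called in every alternative that gave them a p and 87 were lost in at least one; of 168 not called, 74 were called in at least one. The choices to leave out livers N5, N6, N7, N11 and N12 together were made after seeing the data. In the fit of all 6 groups, Kupffer markers fell from 8 lower to 3, iron genes from 7 to 4, periportal genes from 5 to 3 and hepatocyte markers from 5 to 3, and under DESeq2 4 male-biased genes had no p and 7 of the other 8 were lower. With a mean count of at least 50, fewer G2/M genes were tested and 4 were higher, not 16. No paired analysis was possible because the livers and tumours share no replicate numbers.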
